A study of Mus musculus with 6 samples.

Results

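The hedgehog pathway genes examined here are the receptors and coreceptors Ptch1, Smo, Boc, Cdon and Hhip and the intracellular effectors Gli1, Gli2, Gli3 and Sufu. They were found by gene symbol, and all 9 were present among the 31763 genes of the table. RNA of the medial prefrontal cortex (mPFC) was sequenced after removal of ribosomal RNA, in 3 saline and 3 morphine samples. All samples came from male C57BL/6J mice aged 8 to 10 weeks. The mice had been through conditioned place preference (CPP), in which an injection is paired with a chamber. They had then spent a week of withdrawal in the home cage and been tested again in the chambers. The paper states that the tissue was taken directly after the CPP test. The saline group received saline at 10 ml/kg by intraperitoneal injection, and the morphine group received morphine at 10 mg/kg by the same route. No other genotype, time or drug was part of the series. The sources do not say whether a sample is a single mouse or a pool, so the spread behind each p-value may be technical in part. Total counts ran from 17984153 to 23529592 per library.

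Hedgehog ligands (Sonic, Indian and Desert hedgehog) are secreted proteins that bind Patched receptors. Without ligand, Patched holds Smoothened inactive, and the Gli proteins are held by Sufu or cut to repressors. With ligand, Smoothened moves into the primary cilium, Gli proteins turn into activators, and target genes, Gli1, Ptch1 and Hhip among them, are transcribed. In the adult cortex, neurons are known sources of Sonic hedgehog, and astrocytes are known to carry the pathway's receptors and Gli factors.

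The tissue label was checked against marker genes, and saline sample 1 stood apart. The summed FPKM (fragments per kilobase of gene, scaled to library depth) of 15 cortical neuron markers was 1322 in saline sample 1 and 1441 to 1524 in the other 5 libraries. Of the 10 marker lists, no measured marker was at 0 in all libraries. The summed FPKM of 18 olfactory bulb markers was 187 in saline sample 1 and 35.6 to 41.3 in the other 5, and 17 of these 18 were more than 2 times their highest level elsewhere. Meningeal fibroblast markers summed to 17.98 FPKM in that library and to 9.04 to 13.4 in the others, though Lum, Col1a1 and Igf2 were not highest there. Markers of oligodendrocyte precursors summed to 63.6 against 48.5 to 51.5. Of these, Lhfpl3 was at 10.1 against 4.17 to 4.91 and C1ql1 at 5.01 against 1.53 to 2.11. Olig2, Gpr17, Sox10 and Neu4 were also highest in saline sample 1, but Pdgfra, Cspg4 and Olig1 lay within the range of the other 5 libraries. Choroid plexus and ependymal markers summed to 4.54 against 1.06 to 2.60, with most of the sum from Aqp1, at 2.76 against 0.117 to 0.304. Foxj1, Clic6 and Kl were also highest in saline sample 1, but Ttr, Folr1 and Ccdc153 were not. Ttr was at 0.148 FPKM there and at 1.52 in morphine sample 1. The summed FPKM of the other lists overlapped between the groups, at 227 to 304 in saline and 254 to 319 in morphine for oligodendrocytes, 123 to 125 and 120 to 132 for microglia, 67.9 to 78.2 and 70.7 to 77.7 for vessels, and 278 to 346 and 291 to 340 for interneurons. The interneuron sum joins markers that moved apart in saline sample 1. Gad1, Gad2, Slc32a1 and Reln were highest there, and Pvalb, Lhx6, Vip and Cck lowest. Gad1 was at 74.7 FPKM there against 30.9 to 34.7 elsewhere, and Pvalb at 9.83 against 16.5 to 20.2. The value without saline sample 1 is therefore given for each member and list below.

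No member differed between morphine and saline at an adjusted p under 0.05, by edgeR's quasi-likelihood test adjusted over all 18970 genes tested, and none did by DESeq2. The share of all genes called in that way by edgeR was 0%. At an unadjusted p under 0.05, 1 of 9 members was called. That member, Cdon, was lower in morphine, where 4.96% of all genes were called. In RNA of bulk tissue, fewer cells of a type and less RNA per cell cannot be told apart. No member was called higher, against 2.77% of all genes, and 7.72% were called in either direction. The median log2 fold change, morphine over saline, was -0.08 over the 9 members and -0.01 over all genes tested. Of the members, 4 had a positive and 5 a negative difference, and 47.5% of all genes had a positive one. Without saline sample 1 the members' median turned to 0.07, with 7 positive and 2 negative, beside 0.0049 over all genes and 51.4% of them positive.

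All 9 members passed the filter on low counts, which needed 10 counts in at least 3 libraries. By level per length, the coreceptor Boc stood first with 7.54 FPKM as the mean of the 6 libraries and a range of 6.63 to 8.77. Ptch1 followed at 6.00 (5.45 to 7.28), and the ranges of this pair overlapped. Cdon at 2.70, Sufu at 2.61, Smo at 1.94 and Gli3 at 1.94 formed the middle of the order, and each overlapped its neighbour there. Hhip at 0.937 and Gli2 at 0.742 overlapped each other and lay below the range of Gli3. Gli1 was last at 0.232 (0.170 to 0.343), below every value of Gli2. The 3 gaps at which no library of neighbours in the order crossed were those between Ptch1 and Cdon, between Gli3 and Hhip, and between Gli2 and Gli1. The order was a description of these 6 libraries and was not tested.

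**Figure D1:**
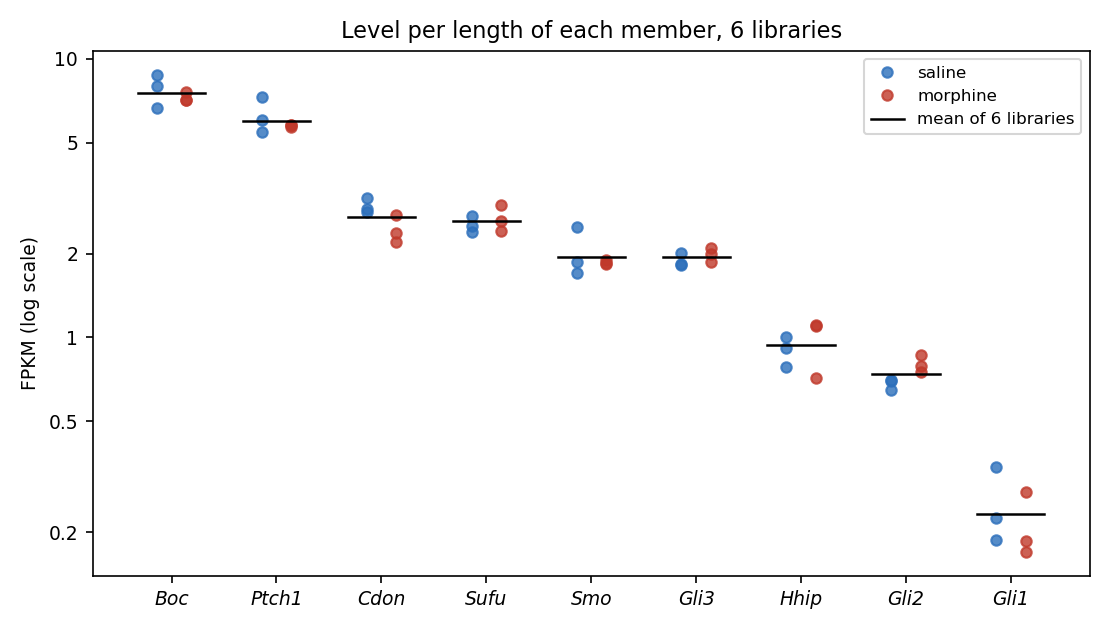
Level of each hedgehog pathway gene as FPKM on a log axis, 1 point per library, blue for the 3 saline and red for the 3 morphine samples, with a black line at the mean of the 6 libraries. Boc at 7.54 and Ptch1 at 6.00 lie highest, and Gli1 at 0.232 lies below all values of every other member.

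The members include paralogues, and the counts depend on telling them apart. The longest runs of bases that their coding sequences share were taken from the GENCODE transcripts (GRCm38). The reads that the study's methods describe are longer than each of these runs, so as sequenced none lies wholly inside such a stretch. Every base in these lines is shared, and none is set in capitals.
Boc and Cdon: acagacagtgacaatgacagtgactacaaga
Gli2 and Gli3: aagaaggagttcgtgtgccgctggc
Gli1 and Gli2: gagaagccacacaagtgcacgtt
The run of Boc and Cdon is 31 bases long, at bases 2248 to 2278 of the Boc and 2593 to 2623 of the Cdon coding sequence. It makes 2 of the 3301 windows of 30 bases in Boc, and no such window was shared by Gli1, Gli2 and Gli3. The run of Gli2 and Gli3 is 25 bases, that of Gli1 and Gli2 is 23, and that of Gli1 and Gli3 is 14. Only Boc with Cdon and the Gli genes with each other were compared, by exact runs in coding sequence. The other members and the exon parts outside the coding sequence were not searched. Whether reads were counted for the wrong paralogue was not tested.

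Ptch1 (ENSMUSG00000021466, chr13:63508328-63573598, minus strand, GRCm38), the Patched receptor that binds the ligand and is itself a target of the pathway, had 1476 to 2352 counts per library. Its normalized count (CPM, the count scaled to library depth by TMM) was 101, 85.6 and 77.2 for the saline libraries and 83.2, 81.4 and 82.2 for the morphine libraries, each in the order of the sample numbers. Saline sample 1 was the highest and saline sample 3 the lowest, so the groups overlapped, and the morphine samples lay close together between them. The log2 fold change was -0.10 with an SE of 0.09 (edgeR adjusted p = 0.78), and the 95% interval of the fold was 0.817 to 1.07. Without saline sample 1 it was 0.02 with an SE of 0.06 (edgeR adjusted p = 0.94).

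Smo (ENSMUSG00000001761, chr6:29735503-29761365, plus strand), the membrane-spanning signal transducer that Patched restrains, had 185 to 319 counts. Its CPM was 13.8, 9.62 and 10.5 in saline and 10.8, 10.2 and 10.6 in morphine. Again saline sample 1 was above the other 5 libraries, which lay between 9.62 and 10.8. Its log2 fold change was -0.10 with an SE of 0.14 (edgeR adjusted p = 0.87) and turned to 0.07 with an SE of 0.12 without saline sample 1 (edgeR adjusted p = 0.86). In that library the CPM of Smo was 1.33 times and that of Ptch1 1.24 times the mean of the other 5, beside 4.87 times for the summed olfactory bulb markers, 2.80 times for the choroid plexus and ependymal markers, 1.61 times for the meningeal markers and 1.27 times for those of oligodendrocyte precursors. Some markers of the choroid plexus and ependymal, meningeal and precursor lists were not highest there. The part of each list in these values was not tested.

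Hhip (ENSMUSG00000064325, chr8:79965851-80058006, minus strand) encodes a membrane protein that binds and sequesters the ligand, and it is a target of the pathway as Ptch1 is. It had 139 to 207 counts, with a CPM of 8.93, 8.34 and 7.10 in saline and 10.2, 9.88 and 6.62 in morphine. Morphine samples 1 and 2 were the highest of all and morphine sample 3 the lowest, so the spread within morphine enclosed the saline group. On the log2 scale Hhip differed by 0.12 with an SE of 0.17 (edgeR adjusted p = 0.87), and 0.19 without saline sample 1 (edgeR adjusted p = 0.72).

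Boc (ENSMUSG00000022687, chr16:44485049-44558897, minus strand) and Cdon (ENSMUSG00000038119, chr9:35421128-35507652, plus strand) encode related coreceptors of the immunoglobulin superfamily that bind hedgehog ligands together with Patched. Cdon had 335 to 556 counts per library. Its CPM was 23.98, 21.9 and 22.2 in saline and 18.5, 21.1 and 17.2 in morphine. All 3 morphine samples lay below all 3 saline samples, with morphine sample 2 and saline sample 2 the nearest to each other. The means were 22.7 ± 1.13 (SD, n = 3) CPM in saline and 19.0 ± 1.99 (SD, n = 3) in morphine. The log2 fold change of Cdon was -0.26 with an SE of 0.10, and the 95% interval of the fold was 0.718 to 0.969. Its unadjusted p was 0.023 and its adjusted p 0.62 by edgeR, 685th of 18970 genes in order of p, so it did not pass the test over all genes. DESeq2 gave -0.25, with an unadjusted p of 0.035 and an adjusted p of 0.82. Leaving out saline sample 1 gave -0.22 with an SE of 0.10 (edgeR unadjusted p = 0.037, adjusted p = 0.38). Leaving out morphine sample 1 gave -0.25 and leaving out morphine sample 3 gave -0.20, with unadjusted p of 0.068 and 0.10 by edgeR.

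Boc had 570 to 831 counts and a CPM of 28.98, 39.2 and 35.5 in saline and 34.2, 31.5 and 32.3 in morphine. The saline group held both the lowest library, sample 1, and the highest, sample 2, and it enclosed the morphine group. For Boc the log2 fold change was -0.08 with an SE of 0.10 (edgeR adjusted p = 0.85). In saline sample 1 Boc was at 0.839 times the mean of the other 5 libraries, opposite to Ptch1, Smo, Cdon and Gli1. Without that library the log2 fold change of Boc was -0.19 with an SE of 0.08 (edgeR unadjusted p = 0.019, adjusted p = 0.29), while without saline sample 2 it was 0.02 (edgeR adjusted p = 0.97). Without saline sample 1, Boc and Cdon were the 2 of 9 members at an unadjusted p under 0.05, both lower, where 7.53% of the 18671 genes tested were called lower, 4.14% higher and 11.7% in either direction. At an adjusted p under 0.05, 0.996% of genes and none of the members were called there.

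Sufu (ENSMUSG00000025231, chr19:46396896-46488804, plus strand), the inhibitor that binds Gli proteins in the cytoplasm, had 306 to 487 counts. Its CPM was 18.6, 16.7 and 17.4 in saline and 16.9, 18.04 and 21.1 in morphine. Morphine sample 3 was the highest library, and the other 2 morphine samples lay within the saline range. Sufu had a log2 fold change of 0.09 with an SE of 0.10 (edgeR adjusted p = 0.83), 0.14 without saline sample 1 and -0.01 without morphine sample 3.

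Gli1 (ENSMUSG00000025407, chr10:127329882-127341974, minus strand), an activator that is transcribed in response to the pathway and is a common readout of it, was the member of lowest level. It had 39, 20 and 22 counts in saline and 17, 25 and 20 in morphine. The CPM was 1.68, 0.943 and 1.12 in saline and 0.940, 1.38 and 0.866 in morphine. Saline sample 1 was the highest, at 1.601 times the mean of the other 5, and the groups overlapped. Gli1 had a log2 fold change of -0.25 with an SE of 0.32 (edgeR adjusted p = 0.85), and 0.03 with an SE of 0.36 without saline sample 1 (edgeR adjusted p = 0.99). The 95% interval of the fold, 0.511 to 1.38, was the widest of the 9 members, so a fall to that lower bound or a rise to that upper one could not be told from no difference at this depth. Exons of Gli1 share 62 bases with Arhgap9, which lies on the other strand and had 5 to 30 counts, and 265 bases with the antisense gene Gm47200, which had 1 to 4. The study's methods name a directional library kit. Whether reads were counted by strand is not stated in the sources, so a part of these few reads cannot be assigned with certainty.

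Gli2 (ENSMUSG00000048402, chr1:118834132-119053619, minus strand), the main activator upstream of Gli1, had 87 to 140 counts. Its CPM was 4.74, 4.81 and 4.44 in saline and 5.48, 5.13 and 6.06 in morphine. All 3 morphine samples lay above all 3 saline samples, with means of 4.67 ± 0.194 (SD, n = 3) in saline and 5.56 ± 0.469 (SD, n = 3) in morphine. The log2 fold change was 0.25 with an SE of 0.14, and the 95% interval of the fold was 0.955 to 1.49. Its unadjusted p was 0.11 and its adjusted p 0.68 by edgeR, so Gli2 passed neither threshold. Without saline sample 1 the log2 fold change was 0.27 with an SE of 0.17 (edgeR unadjusted p = 0.13, adjusted p = 0.58). Cdon and Gli2 were the 2 of 9 members whose groups did not overlap, where 13.3% of all genes tested did not.

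Gli3 (ENSMUSG00000021318, chr13:15463235-15730026, plus strand), which acts mainly as the repressor of the family, had 321 to 473 counts. The CPM was 18.9, 17.6 and 17.4 in saline and 19.4, 17.7 and 20.5 in morphine. Its libraries were the most alike of the 9 members, the highest being 1.175 times the lowest, and the groups overlapped. Gli3 had a log2 fold change of 0.09 with an SE of 0.09 (edgeR adjusted p = 0.80), and 0.14 without saline sample 1 (edgeR adjusted p = 0.64). Exons of Gli3 share 188 bases with Gm6556 on the other strand, which had 12 to 28 counts.

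**Figure D2:**
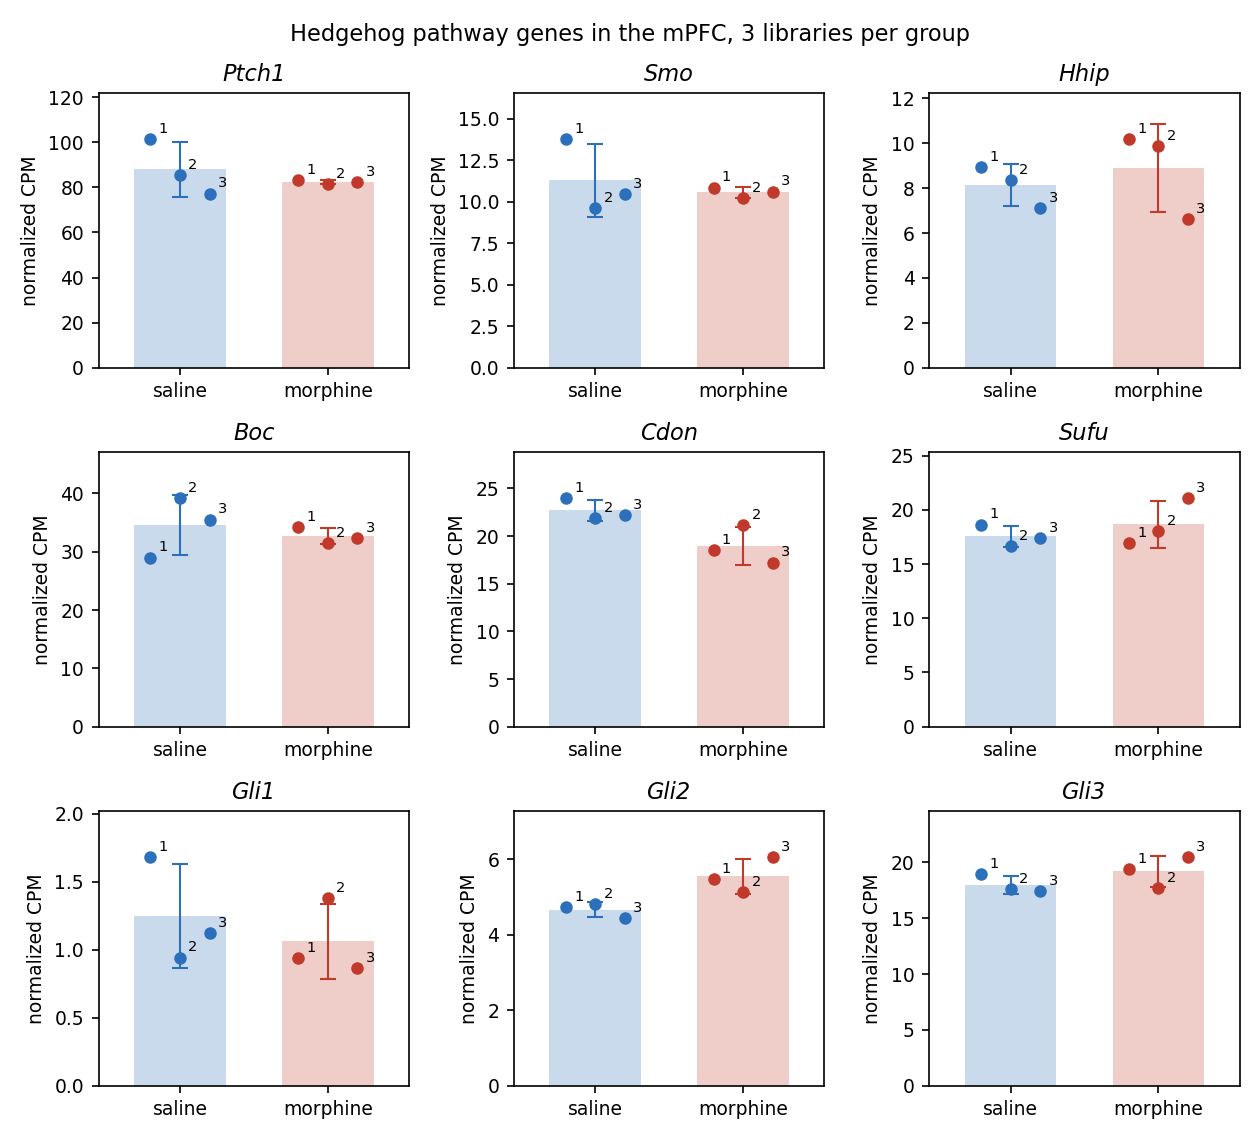
Normalized CPM of the 9 hedgehog pathway genes, a panel each with its own axis from 0; points are libraries marked with their sample number, bars are group means and error bars the SD (n = 3). Only Cdon and Gli2 have groups that do not overlap, and saline sample 1 is the highest library for Ptch1, Smo, Cdon and Gli1.

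Across the libraries the members had no common order. Saline sample 1 was the highest library for 4 members (Ptch1, Smo, Cdon and Gli1), and morphine sample 3 for 3 (Sufu, Gli2 and Gli3). Boc was highest in saline sample 2 and Hhip in morphine sample 1. Morphine sample 3 was at the same time the lowest library for Cdon, Hhip and Gli1. The members moved over a small range. The highest library was between 1.175 times the lowest, for Gli3, and 1.94 times, for Gli1. The summed FPKM of 15 astrocyte markers ran from 1215 to 1241 in saline and from 1221 to 1311 in morphine, the top value being that of morphine sample 3. Its part in the values of Sufu, Gli2 and Gli3 there was not tested. Single astrocyte markers moved apart in saline sample 1. Gfap, Aqp4, Kcnj10, Slc1a3, Gja1 and Atp1b2 were highest there, and Slc1a2, Gjb6 and Fgfr3 lowest. Gfap was at 21.8 FPKM there against 8.04 to 11.02 elsewhere, and Slc1a2 at 409 against 444.5 to 473. The part of these markers in the members' values was not tested either.

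**Figure D3:**
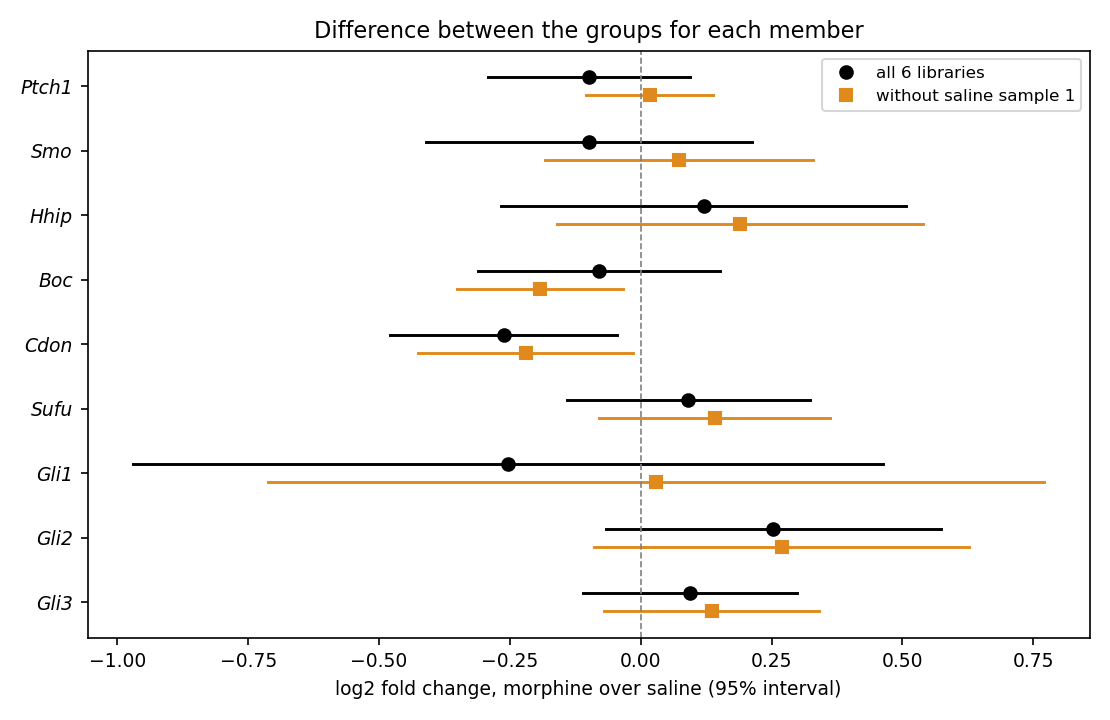
Log2 fold change, morphine over saline, of each hedgehog pathway gene with its 95% interval; black circles are the fit of all 6 libraries and orange squares the fit without saline sample 1. The interval of Cdon lies below 0 in both fits and that of Boc in the second, while Ptch1, Smo and Gli1 cross from the negative to the positive side between the fits.

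The 3 members that are targets of the pathway were also compared with the other genes over the 6 libraries, as a description, by Pearson's r of log2 CPM against 14503 genes with a mean FPKM of at least 1. For Gli1 the most alike were Xrcc2 (r = 0.996), Rcbtb1 (r = 0.991) and Trim24 (r = 0.991). For Ptch1 they were Ddx28 (r = 0.999), Necab2 (r = 0.996) and Slc9a3r2 (r = 0.995). For Hhip they were the pseudogene Znf41-ps (r = 0.986), Gm14325 (r = 0.984) and Pld2 (r = 0.98). With 6 points that share saline sample 1, 204 genes reached an r over 0.9 with Gli1, 447 with Ptch1 and 52 with Hhip. Without saline sample 1 the named genes had an r of 0.98 to 0.998 with Gli1, 0.971 to 0.991 with Ptch1 and 0.985 to 0.99 with Hhip. The remaining libraries had also served to pick these genes, so the values are no independent check of the likeness. Between Ptch1 and Gli1 themselves r was 0.61, between Ptch1 and Hhip 0.29, and between Gli1 and Hhip 0.38.

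The other genes of the pathway were read in 4 lists. At an adjusted p under 0.05 and at an unadjusted p under 0.05, edgeR called none of their genes, against 0% and 7.72% of all genes. DESeq2 called none of them either at an unadjusted p under 0.05. Of the 9 genes for ligands and their release, 7 were tested, and their median log2 fold change was -0.22, with 6 of 7 negative. This median was -0.13 without saline sample 1, with 5 of 7 negative. Shh, the Sonic hedgehog ligand, had 35 to 70 counts, with a CPM of 3.02, 2.07 and 2.35 in saline and 2.65, 1.93 and 1.73 in morphine. The groups overlapped, and the log2 fold change was -0.25 with an SE of 0.24 (edgeR adjusted p = 0.80), or -0.08 without saline sample 1 (edgeR adjusted p = 0.94). The other two ligand genes were near absence. Ihh (Indian hedgehog) had 0, 4 and 0 counts in saline and 1, 4 and 5 in morphine, and Dhh (Desert hedgehog) had 4, 5 and 2 in saline and 3, 0 and 0 in morphine, so neither was tested. The measured genes of highest level were Disp2, of the Dispatched family, at 43.6 FPKM, Scube1, a member of the family of secreted carriers, at 11.9, and Disp1, which releases the ligand from its source cell, at 1.45. Their log2 fold changes were 0.06 for Disp2, -0.08 for Scube1 and -0.01 for Disp1 (edgeR adjusted p = 0.76, 0.78 and 0.99). These were 0.09, -0.13 and 0.04, in the same order, without saline sample 1.

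Among the other receptors and modulators 26 of 27 genes were tested, Lrp2 being too low, and the median log2 fold change was 0.01, with 14 positive and 12 negative, and 0.0049 with the same tally without saline sample 1. In 6 of the 26 the groups did not overlap, against 13.3% of all genes. Prkacb and Prkaca, catalytic subunits of protein kinase A, which phosphorylates Gli proteins toward repressors, stood highest at 71.6 and 65.3 FPKM. Their log2 fold changes were 0.06 with an SE of 0.06 for Prkacb and 0.10 with an SE of 0.05 for Prkaca (edgeR adjusted p = 0.78 and 0.68). Spop, an adaptor for the degradation of Gli2 and Gli3, was at 52.0 FPKM and differed by -0.07 (edgeR adjusted p = 0.74). Leaving out saline sample 1 gave 0.03 for Prkacb, 0.13 for Prkaca and -0.07 for Spop.

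All 25 genes for the primary cilium and its transport were tested, the organelle through which Smoothened and the Gli proteins pass. The median log2 fold change was -0.03, with 10 positive and 15 negative, and in 3 of 25 the groups did not overlap, against 13.3% of all genes. Without saline sample 1 the median was -0.03, with 8 positive and 17 negative. Kif3a and Kif3b, motor subunits of transport toward the ciliary tip, were at 27.9 and 17.5 FPKM and differed by 0.06 and 0.01 (edgeR adjusted p = 0.77 and 0.95). Ttbk2, a kinase needed to start a cilium, was at 15.5 FPKM and differed by 0.01 (edgeR adjusted p = 0.95). Leaving out saline sample 1 gave 0.07 for Kif3a, 0.01 for Kif3b and 0.03 for Ttbk2.

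Of 15 transcriptional targets known from other tissues, 13 were tested, Foxa2 and Nkx6-1 being too low. Their median log2 fold change was -0.03, with 6 positive and 7 negative, and in 0 of 13 did the groups stand apart, against 13.3% of all genes. This median turned to 0.02 without saline sample 1, with 8 positive and 5 negative. Ccnd2 and Ccnd1, cyclins that drive entry into the cell cycle, were at 14.3 and 11.1 FPKM and differed by 0.08 and 0.05 (edgeR adjusted p = 0.78 and 0.84). Bmi1, a Polycomb protein, was at 11.7 FPKM and differed by -0.08 (edgeR adjusted p = 0.82). Leaving out saline sample 1 gave 0.01 for Ccnd2 and 0.04 for Ccnd1 and turned Bmi1 to 0.02. Without saline sample 1, 1 gene for ligand release, 2 other receptors and modulators, 2 ciliary genes and 2 targets reached an unadjusted p under 0.05, where 11.7% of all genes did, and none reached an adjusted p under 0.05 by edgeR.

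**Figure D4:**
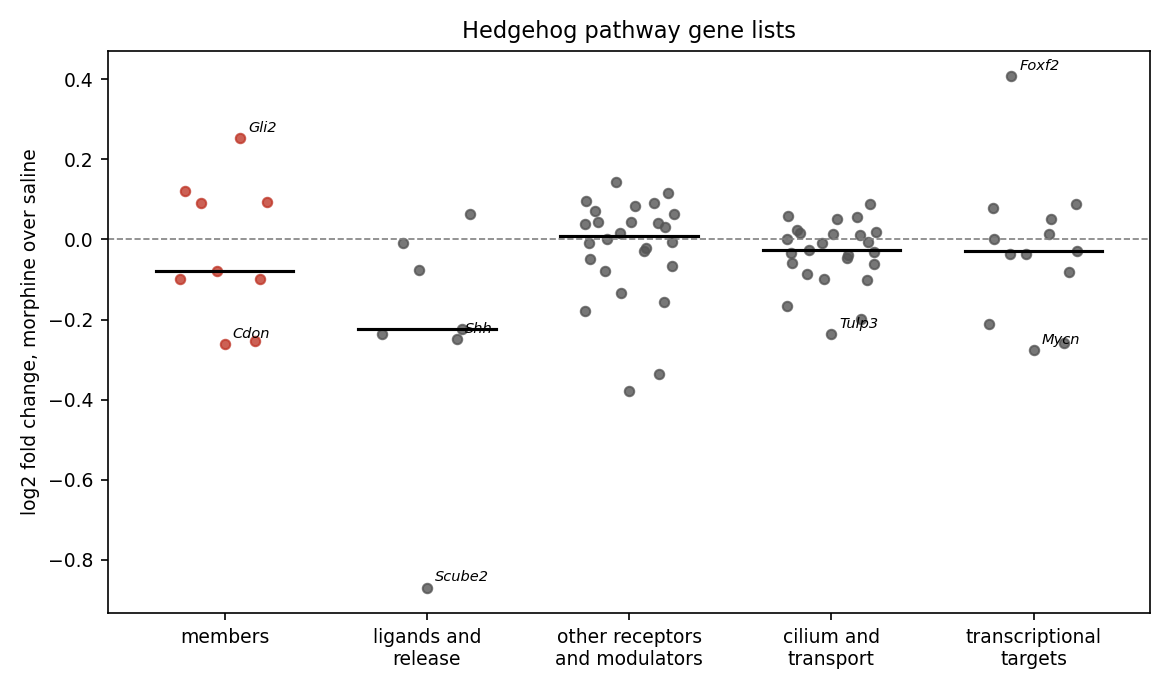
Log2 fold change, morphine over saline, of each gene tested, with the 9 members in red and the 4 lists of other pathway genes in grey; black lines are medians and some genes are named. The medians are -0.08 for the members and -0.22, 0.01, -0.03 and -0.03 for the lists, and most points lie near 0.

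The 7 members with an entry in the RefSeq promoter table (GRCm38.p6) were searched for the Gli motif GACCACCCA on both strands around the start that the table gives, where its reverse complement reads TGGGTGGTC. None of the 7 windows, those of Ptch1, Smo, Cdon, Hhip, Gli2, Gli3 and Sufu, held it, and 0.25% of all 32851 promoters did. The RefSeq starts of Cdon (window chr9:35451826-35452125), Ptch1 (chr13:63565686-63565985) and Gli3 (chr13:15463473-15463772) lie inside the gene as GENCODE draws it, so the outer starts of these genes were not searched. A window without these letters says nothing of Gli binding there or farther away.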

How the data were processed

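The authors deposited, for each gene in each library, its raw count and its FPKM. The deposited counts are whole numbers. The deposited FPKM values follow from them by the gene's length and the library's depth, as tested on 13342 genes. HTSeq 0.11.2, HISAT2 2.1.0, cutadapt 1.9.3, StringTie 1.3.3, limma 3.40.6, DESeq 1.8.3, DESeq2 1.26.0 and mm10 are listed in the submitters' processing notes, with no role for each. Strand use in counting was not stated. Groups and sample numbers came from the sample titles.

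Genes that reached 10 counts in 3 or more libraries were kept, scaled by TMM and tested with edgeR 4.0.16 (quasi-likelihood F test, R 4.3.3), with the group as the only term. The test was two-sided, and p-values were adjusted after Benjamini and Hochberg over all genes tested. CPM values are counts scaled to library depth by TMM. The study's methods use DEGseq, which takes no spread between replicates. The alternatives were DESeq2 1.42.0, RLE size factors, other filters, the sample number as a block, limma 3.58.1 on log2(FPKM + 0.1) and log2(FPKM + 1), and leaving out each library. The combination of DESeq2 with leaving out saline sample 1 was chosen after seeing the data. Of the gene identifiers, 31748 matched GENCODE (GRCm38, the build of mm10) and 15 did not.

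The members and lists were chosen with earlier results of these data known. Named are the 9 members, from each other pathway list the genes at an unadjusted p under 0.05 or else the 3 of highest mean FPKM, the ligand genes, and the 3 genes most like each of Gli1, Ptch1 and Hhip. Arhgap9, Gm47200, Gm6556 and the genes too low to test were named outside this rule. The rule also took 1 gene that is not reported here. Markers of 10 cell types or tissues were summed per library. The scripts were tested on simulated counts.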

Additional observations from a re-analysis of the deposited data

How the results depend on the processing

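No member reached an adjusted p under 0.05 under any of the 15 alternatives, where all genes gave 0 in the reported fit, 16 with DESeq2, 279 with no filter on low counts, 0 to 186 when a library was left out (186 without saline sample 1, 0 without each other) and 94 when DESeq2 left out saline sample 1. At an unadjusted p under 0.05 the reported 1465 genes became 974 with DESeq2, 2499 with no filter and 748 (without morphine sample 3), 754 (without morphine sample 1) to 2179 with a library left out. Among the members the count of 1 became 0 with limma on log2(FPKM + 0.1) and log2(FPKM + 1) and with DESeq2 without saline sample 1, and 0 to 2 with a library left out. It was 0 without morphine sample 1 or 3, and 2 without saline sample 1 (Boc and Cdon) or 3 (Ptch1 and Cdon). The count of other pathway genes, 0 as reported, was 3 with no filter, 1 with limma on log2(FPKM + 1), 2 with limma on log2(FPKM + 0.1) without a filter, 2 with DESeq2 without saline sample 1 and 0 to 7 with a library left out (7 without saline sample 1). The members' median of -0.08 ran from -0.11 to 0.074 with a library left out, 0.074 being that without saline sample 1 and 0.021 that without saline sample 2, and was 0.075 with DESeq2 without saline sample 1.

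The log2 fold change of Cdon stayed negative in all 15 alternatives (-0.35 to -0.20, adjusted p 0.36 to 0.98) and that of Gli2 positive (0.10 to 0.31, adjusted p 0.51 to 0.99), with an unadjusted p under 0.05 for Cdon in 10 of 15 and for Gli2 in none. With a library left out, Ptch1 ran from -0.18 to 0.017, Smo from -0.20 to 0.074 and Gli1 from -0.48 to 0.030, the positive values being those without saline sample 1, where DESeq2 gave 0.018, 0.075 and 0.036. Boc ran from -0.19 to 0.021, turning without saline sample 2, and Sufu from -0.0071 to 0.16, turning without morphine sample 3. The causes were not tested.

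With the sample number as a replicate block, 1315 genes, 1 member and 1 other pathway gene reached an unadjusted p under 0.05, and the members' median was -0.07. The labels do not say that equal numbers mark a pairing, and the deviations of same-numbered libraries correlated at 0.015, 0.001 and -0.021. Depth limits Gli1 most, with 17 to 39 counts per library.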

Other observations

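Of the 7 other pathway genes at an unadjusted p under 0.05 without saline sample 1, named here after their values had been seen, 4 were lower in morphine. These were Iqce, a protein of the ciliary base, with a log2 fold change of -0.27, Tulp3, an adaptor that brings receptors into the cilium, with -0.25, Rpgrip1l, a protein of the ciliary transition zone, with -0.16, and Scube1 with -0.13. The other 3 were higher, the mesenchymal factor Foxf2 by 0.56, the survival factor Bcl2 by 0.15 and Prkaca by 0.13. Their adjusted p by edgeR lay between 0.15 for Iqce and 0.41 for Bcl2, so none passed the test over all genes.

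The secreted carrier Scube2, also named after its values had been seen, had the largest difference of the pathway genes tested over all 6 libraries. Its CPM was 4.27, 1.56 and 1.53 in saline and 1.05, 2.21 and 0.866 in morphine, with a log2 fold change of -0.87 and an SE of 0.47 (edgeR adjusted p = 0.67). Saline sample 1 was at 2.96 times the mean of the other 5 libraries. Without that library the log2 fold change of Scube2 was -0.19 with an SE of 0.35 (edgeR adjusted p = 0.88), smaller than that of Foxf2.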
